A study of Drosophila melanogaster with 10 samples.

Results

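The adepithelial myoblast genes twi, Him, zfh1, htl, stumps and Mef2 were followed through every library of the series, 6 genes of the 7987 that the deposited table lists. They were taken by name, and the group was chosen by their levels in these same libraries, mainly in the tumorous discs against the others, so their values are given as a description, with an error and without a test. All 6 passed the filter on low values, which asked for 2 or more libraries with a value of 1 or more, as did 7858 genes in all. Him was the lowest of them and stayed under 1 in 2 of the 3 libraries of the tumorous genotype.

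RNA came from wing imaginal discs of larvae in the third instar, dissected on the fourth to the fifth day after the transgenes were induced, and the comparisons ask how discs with a tumour differ from discs with either single manipulation or with neither. The tumorous genotype ap > Yki+NelfAi (3 libraries) carries UAS Yki and UAS NelfA RNAi, ap > Yki (3) carries UAS Yki alone, ap > NelfAi (2, numbered 1 and 2) carries UAS NelfA RNAi alone, and ap > GFP (2, numbered 1 and 3) carries neither and served as the control. All 4 genotypes also carry UAS GFP and Gal80ts, a repressor that blocks Gal4 until the temperature is raised. Gal4 is under an apterous enhancer that is active in the dorsal compartment of the disc. The methods give control crosses 2 copies of GFP and experimental crosses 1, so the dose of GFP was not held equal. The labels give neoplastic overgrowth for ap > Yki+NelfAi, mild overgrowth with hyperplasia for ap > Yki and wild type tissue for ap > NelfAi and ap > GFP. Discs were pooled for each library, fewest for the tumorous genotype, and nothing in the labels or methods says whether the driver acts in the myoblasts themselves. The methods call the libraries biological replicates without saying how they were separated, and describe as many for ap > NelfAi and ap > GFP as for the other genotypes, so that 1 library of each is not analysed here. Hence errors and p-values measure the spread between these libraries.

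Adepithelial cells are mesodermal myoblasts that lie beneath the notum, the part of the wing disc epithelium that forms the dorsal thorax, and later build the flight muscles. Twi, a basic helix-loop-helix factor, keeps them as proliferating progenitors together with Notch signalling, while Him and Zfh1 hold back differentiation and Mef2 drives it. The FGF receptor Htl, with its adaptor Stumps, lets them respond to FGF ligands made by neighbouring cells, and the signal runs through Ras and MAPK.

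The deposited value of a gene is its read number divided by a factor of the library, and 1 read was worth 0.0464 to 0.0839 units. Reads on genes ran between 9810347 and 13065642 in ap > Yki+NelfAi, 12305413 and 12637389 in ap > Yki, 6990931 and 8153879 in ap > NelfAi, and 8384594 and 9746830 in ap > GFP. The targeted gene Nelf-A was at 17.1, 15.8 and 16.9 in ap > Yki+NelfAi, 28.1, 31.9 and 39.4 in ap > Yki, 11.4 and 32.9 in ap > NelfAi replicates 1 and 2, and 40.4 and 36.0 in ap > GFP. The library labelled ap > NelfAi replicate 2 thus held Nelf-A at a level also seen where the construct was absent, while ap > NelfAi replicate 1 was under all of them. The other manipulated gene, yki, was at 8143.0, 11376.5 and 9924.7 in ap > Yki+NelfAi and 2637.2, 3395.5 and 4006.9 in ap > Yki. It was at 187.2 and 75.0 in ap > NelfAi, and 264.7 and 306.8 in ap > GFP. Comparisons of ap > Yki+NelfAi with ap > Yki therefore do not hold the level of yki equal. Some libraries stood apart in how the value of a gene varied with the length of its transcripts. Spearman's rho over genes between transcript length and the library's deviation was -0.66 in ap > NelfAi replicate 1, 0.48 in the library labelled ap > NelfAi replicate 2 and 0.47 in ap > Yki replicate 3, against -0.21 to 0.30 in the other 7. Values that rest on these libraries are therefore also given with that trend removed or without the library.

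The 6 genes have median transcript lengths between 920 bases (Him) and 6522 bases (zfh1). On the scale of value per kilobase of transcript, Mef2 averaged 9.64 ± 0.74 and twi 9.58 ± 0.63 in ap > GFP (SD, n = 2 libraries), and their ranges overlapped at the top of the group. Below them stood stumps at 6.51 ± 1.86, Him at 5.98 ± 1.08, htl at 2.49 ± 0.39 and zfh1 at 2.39 ± 0.38, with overlapping ranges for stumps and Him and for htl and zfh1. In ap > Yki+NelfAi the order was Mef2 at 7.55 ± 0.45, stumps at 2.87 ± 0.70, twi at 2.52 ± 0.52, htl at 1.16 ± 0.11, Him at 1.10 ± 0.53 and zfh1 at 0.83 ± 0.17 (SD, n = 3 libraries). Mef2 thus stood clear of the other 5 in the tumorous discs, whereas in ap > GFP it shared the first place with twi.

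All 6 genes were lower in every ap > Yki+NelfAi library than in both ap > GFP libraries, and their median log2 fold change was -1.30, against 0.03 over all 7858 genes tested. For comparison, 31% of all genes had every tumorous library under both controls, and 12.1% were called lower by limma, at an adjusted p under 0.05 and at least 1.5-fold. Since the genes were chosen with this contrast in view, nothing is read from their count. The values are relative to all reads of a library. In bulk discs, fewer myoblasts, the same number among more cells of other kinds, and less of these RNAs per myoblast cannot be told apart. The genes spread over a wide range of differences, from Him and twi, which averaged 18.4% and 26.3% of the ap > GFP mean, to Mef2, which averaged 78.3%.

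**Figure D1:**
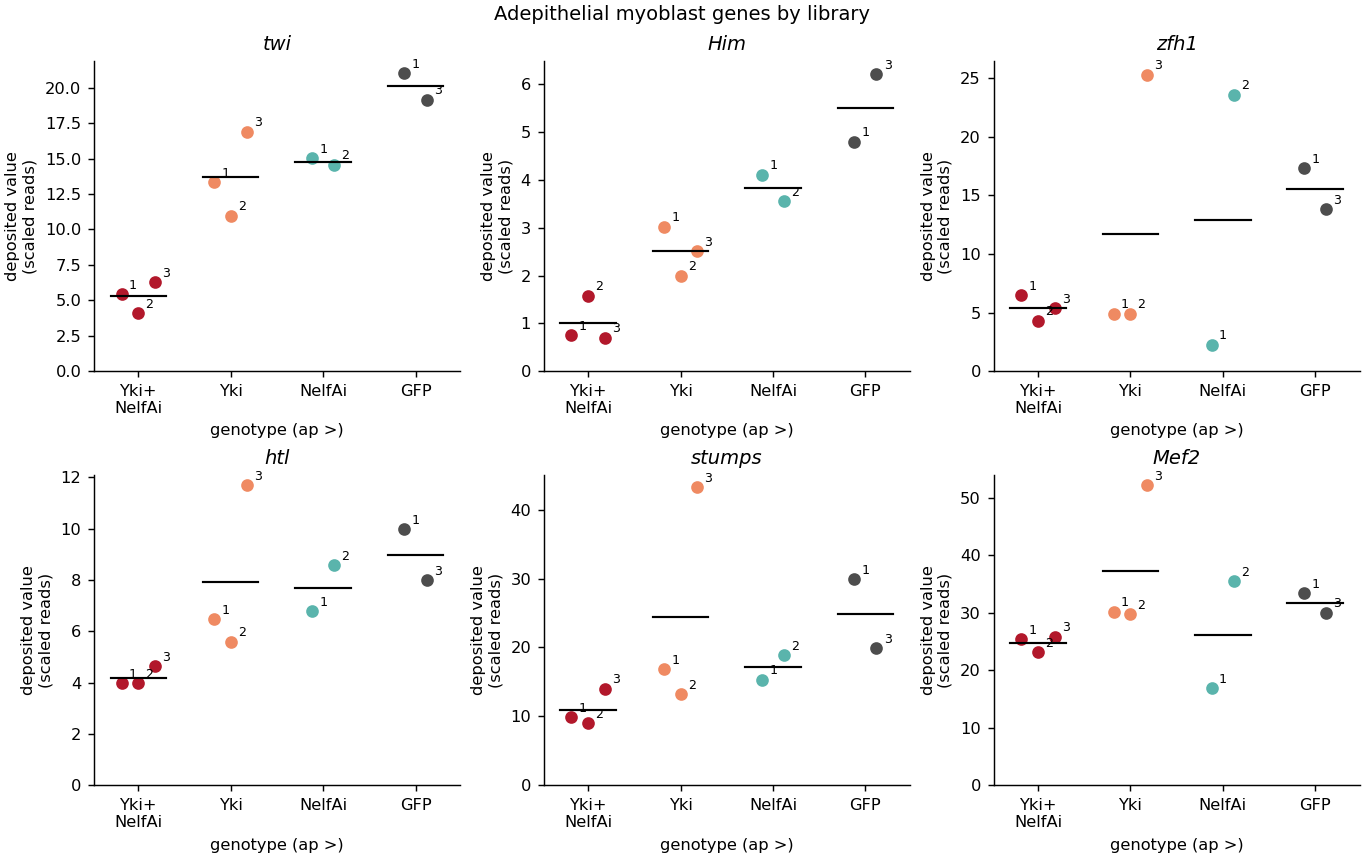
Deposited value (scaled reads, linear axis from 0) of each of the 6 genes in each library, with genotypes from left to right ap > Yki+NelfAi, ap > Yki, ap > NelfAi and ap > GFP. Points are libraries with their replicate number and lines are genotype means. The tumorous libraries lie under both ap > GFP libraries in every panel, and ap > Yki replicate 3 stands high for zfh1, stumps, Mef2 and htl.

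Twist sits at the head of the mesodermal programme and in the disc marks the myoblasts. The values of twi were 5.45, 4.11 and 6.28 in ap > Yki+NelfAi, 13.3, 10.97 and 16.9 in ap > Yki, 15.02 and 14.6 in ap > NelfAi, and 21.0 and 19.2 in ap > GFP. Every tumorous library lay under every library of the other genotypes, every ap > Yki and ap > NelfAi library lay under both controls, and ap > Yki and ap > NelfAi overlapped. In ap > Yki+NelfAi the log2 fold change was -1.85 (SE 0.23) against ap > GFP, -1.30 (0.21) against ap > Yki and -1.42 (0.23) against ap > NelfAi. Against ap > GFP it was -0.55 (0.23) in ap > Yki and -0.43 (0.26) in ap > NelfAi. These differences moved little when 1 library was left out, with the first between -1.97 and -1.69.

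Him, which binds the corepressor Groucho and inhibits Mef2, followed the same order of genotypes at lower levels. Its values were 0.76, 1.58 and 0.70 in ap > Yki+NelfAi, 3.02, 1.99 and 2.51 in ap > Yki, 4.11 and 3.55 in ap > NelfAi, and 4.80 and 6.21 in ap > GFP. On this scale no library of one genotype overlapped with those of another, so the order ap > Yki+NelfAi, ap > Yki, ap > NelfAi, ap > GFP held from the lowest to the highest. With the trend on transcript length removed, ap > NelfAi replicate 1 was at 2.75, within the 1.95 to 3.05 of ap > Yki. The tumorous libraries stayed lowest and those of ap > GFP highest. Its log2 fold change was -2.03 (SE 0.30) in ap > Yki+NelfAi against ap > GFP, -1.03 (0.26) against ap > Yki and -1.56 (0.30) against ap > NelfAi, and -1.001 (0.30) in ap > Yki and -0.46 (0.32) in ap > NelfAi, each against ap > GFP. The tumorous values rest on 14 to 23 reads a library, against at least 75 reads in ap > GFP, so the pseudocount of 0.5 understates the difference more than for the other 5 genes. On the recovered reads edgeR gave -2.46 for the first of these fold changes.

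Zfh1, a zinc finger and homeodomain repressor that keeps muscle progenitors undifferentiated and is also made in hemocytes and glia, had the widest spread between libraries. The values of zfh1 were 6.50, 4.32 and 5.39 in ap > Yki+NelfAi, 4.91, 4.89 and 25.3 in ap > Yki, 2.26 and 23.6 in ap > NelfAi, and 17.3 and 13.8 in ap > GFP. The tumorous libraries lay under both controls, but the highest value of all came from ap > Yki replicate 3 and the lowest from ap > NelfAi replicate 1, which held 27 reads of it. The log2 fold change in ap > Yki+NelfAi was -1.45 (SE 0.88) against ap > GFP and -0.64 (0.79) against ap > Yki, and the sign of the second rested on 1 library, since it was 0.11 without ap > Yki replicate 3. Against ap > NelfAi it was -0.48 (0.88), with a range of -2.05 to 1.08 as 1 library at a time was left out, and ap > NelfAi against ap > GFP ran between -2.53 and 0.59 in the same way. With the trend on transcript length removed, the SE against ap > GFP was 0.46 and the values were 4.95, 4.68 and 5.31 in ap > Yki+NelfAi, 6.11, 5.75 and 16.7 in ap > Yki, 5.42 and 15.3 in ap > NelfAi, and 15.1 and 13.4 in ap > GFP. The adjustment brought ap > NelfAi replicate 1 to the level of the tumorous libraries, while ap > Yki replicate 3 and the library labelled ap > NelfAi replicate 2 stayed at or above the controls.

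The receptor htl was at 3.98, 3.97 and 4.64 in ap > Yki+NelfAi, 6.47, 5.60 and 11.7 in ap > Yki, 6.79 and 8.57 in ap > NelfAi, and 9.97 and 7.99 in ap > GFP. Only the tumorous libraries were clear of the rest, and the other genotypes overlapped one another. The log2 fold change of htl in ap > Yki+NelfAi was -1.01 (SE 0.29) against ap > GFP, -0.78 (0.26) against ap > Yki and -0.79 (0.29) against ap > NelfAi, and the second was -0.48 without ap > Yki replicate 3. For ap > Yki and ap > NelfAi against ap > GFP it was -0.23 (0.29) and -0.21 (0.32), smaller than the errors.

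Stumps, the adaptor that both fly FGF receptors need, kept close to htl from library to library. The values of stumps were 9.87, 8.98 and 14.02 in ap > Yki+NelfAi, 16.9, 13.3 and 43.3 in ap > Yki, 15.4 and 18.9 in ap > NelfAi, and 29.9 and 19.9 in ap > GFP. The tumorous libraries lay under both controls and both ap > NelfAi libraries but overlapped ap > Yki, where replicate 2 was under tumorous replicate 3. For ap > Yki+NelfAi the log2 fold change was -1.14 (SE 0.45) against ap > GFP, -0.96 (0.40) against ap > Yki and -0.64 (0.45) against ap > NelfAi, and the second of these was -0.46 without ap > Yki replicate 3. Between ap > Yki and ap > GFP it was -0.19 (0.45) and ran between -0.69, without ap > Yki replicate 3, and 0.15 as libraries were left out.

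Mef2, the MADS box factor that turns on muscle genes and is also made in fat body and some neurons, differed least. The values of Mef2 were 25.5, 23.2 and 25.9 in ap > Yki+NelfAi, 30.2, 29.7 and 52.2 in ap > Yki, 16.9 and 35.5 in ap > NelfAi, and 33.4 and 30.0 in ap > GFP. The tumorous libraries were lower than every ap > Yki and ap > GFP library, by a small margin, and lay between the 2 libraries of ap > NelfAi. In the tumorous discs its log2 fold change was -0.35 (SE 0.33) against ap > GFP, -0.53 (0.30) against ap > Yki and 0.02 (0.33) against ap > NelfAi, so the first and the last were about the size of their errors or less. The second was -0.27 without ap > Yki replicate 3, and the last ran between -0.51 and 0.54 as either library of ap > NelfAi was left out. In ap > Yki and ap > NelfAi against ap > GFP it was 0.18 (0.33) and -0.36 (0.36), and each changed sign with a library left out, ranging between -0.08 and 0.32 and between -0.89 and 0.16.

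**Figure D2:**
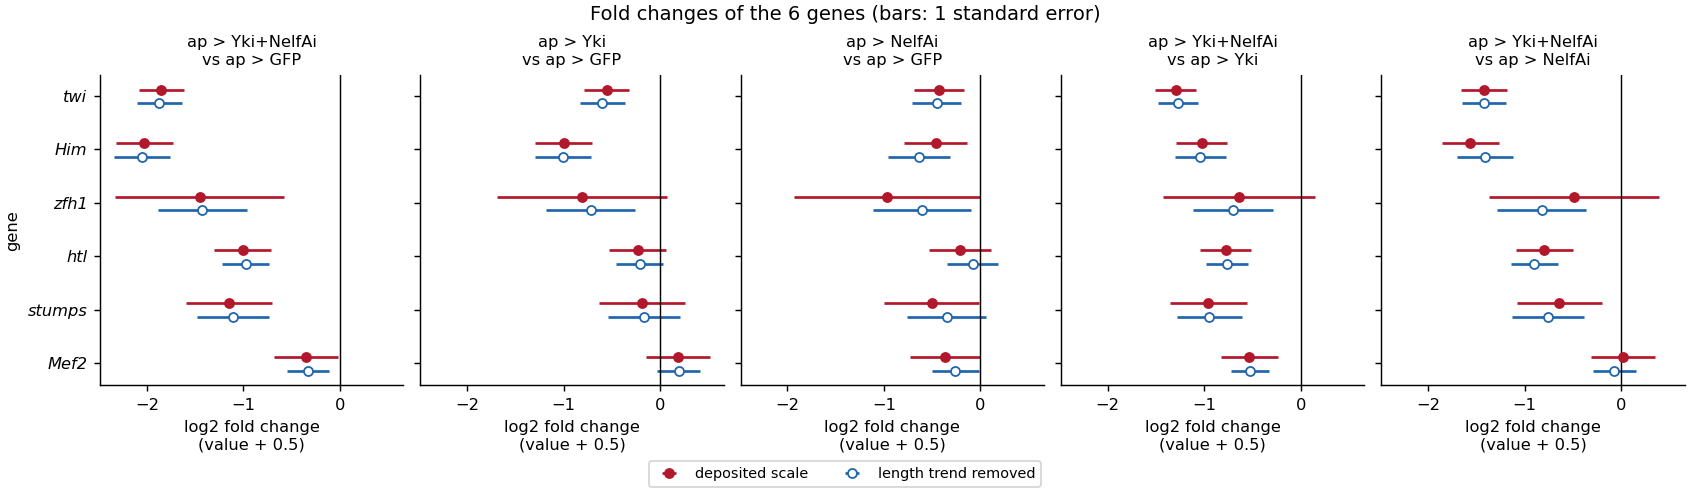
log2 fold change (on value + 0.5) of the 6 genes in 5 comparisons, 1 panel each. Filled points are the deposited scale, open points the same fit with each library's trend on transcript length removed, and bars are 1 standard error. Against ap > GFP, twi and Him stand at -1.85 and -2.03 and Mef2 at -0.35 in ap > Yki+NelfAi, and the bar of zfh1 is the one that shortens most when the length trend is removed.

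Across the other comparisons the 6 genes took smaller and less uniform steps. Relative to ap > Yki, the tumorous libraries lay lower without overlap for 4 genes, twi, Him, htl and Mef2, with a median of -0.87 over the 6. That ordering was met by 21.6% of all genes, and 10.2% were called lower and 7.2% higher. Relative to ap > NelfAi it held for twi, Him, htl and stumps, with a median of -0.72, and it was met by 20.6% of all genes, 9.11% being called lower and 8.36% higher. In ap > Yki against ap > GFP only twi and Him were without overlap, beside 19.3% of all genes, 1.64% called lower and 2.41% called higher, with a median of -0.39. In ap > NelfAi against ap > GFP it was twi, Him and stumps, beside 12.8% of all genes, 0.0509% called lower and 0.0255% called higher, with a median of -0.45. The 5 comparisons share libraries, those of the tumorous genotype in 3 of them and those of ap > GFP in 3, so their values do not stand independently beside each other. The departure of the tumorous discs from the sum of both single effects, from the same libraries and without a test, was -0.87 (SE 0.33) for twi on the log2 scale, the largest in size of the 6, and between -0.56 and 0.33 for the others. This departure does not hold the level of yki equal, which was higher in the tumorous discs than in ap > Yki.

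Because Mef2 differed less than its partners, the make-up of the group shifted. Mef2 supplied 49.0%, 50.2% and 45.5% of the summed value of the 6 genes in ap > Yki+NelfAi, 40.4%, 44.7% and 34.4% in ap > Yki, 27.9% and 33.9% in ap > NelfAi, and 28.7% and 30.9% in ap > GFP. The tumorous share lay above that in every other library, and all ap > Yki libraries lay above both controls. The ratio of twi to Mef2 was 0.214, 0.178 and 0.243 in ap > Yki+NelfAi, 0.441, 0.369 and 0.324 in ap > Yki, 0.891 and 0.410 in ap > NelfAi, and 0.629 and 0.638 in ap > GFP. It was lower in each tumorous library than in any other and lower in each ap > Yki library than in both controls, while the 2 libraries of ap > NelfAi fell on either side of the controls. In contrast, the ratio of htl to stumps, receptor to adaptor, ran between 0.331 and 0.443 in ap > Yki+NelfAi and between 0.333 and 0.402 in ap > GFP, and so overlapped.

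The members also differed in which of them varied together. Over the 10 libraries, Pearson's r of log2(value + 0.5) for the 15 pairs ran between 0.16 (Him and Mef2) and 0.95 (htl and stumps), as a description of libraries that share genotype and length trend. After the genotype mean was taken from each value, zfh1 and Mef2 were at 0.996 and htl and stumps at 0.98, whereas Him was negative with each of the other 5, between -0.41 and -0.12. With the length trend removed, those first 2 pairs stayed at 0.99 and 0.98, and Him was at 0.53 with zfh1, 0.51 with Mef2 and 0.08 with htl, and at -0.04 with twi and -0.02 with stumps. In ap > Yki replicate 3, zfh1, Mef2, htl and stumps each stood above the other libraries of its genotype, and there 36.8 units of stumps, 47.2 of Mef2 and 10.2 of htl remained after the length trend was removed.

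Genes that are not members but mark myoblasts or take part in their fusion were tested with limma over all genes. Of 14 such genes tested, 8 fell in ap > Yki+NelfAi against ap > GFP and 0 rose, beside 12.1% of all genes called lower and 10% called higher, and their median log2 fold change was -1.60 against 0.03 over all genes. Ama, a secreted immunoglobulin-domain protein of adepithelial cells, was at 6.83, 11.2 and 16.1 in ap > Yki+NelfAi, 71.8, 74.2 and 57.6 in ap > Yki, 204 and 176 in ap > NelfAi, and 159 and 194 in ap > GFP. It fell in ap > Yki+NelfAi against each other genotype, by log2 fold changes of -3.97 (SE 0.31, limma adjusted p = 4.52e-05) against ap > GFP, -2.59 (0.28, adjusted p = 0.00045) against ap > Yki and -4.07 (0.31, adjusted p = 6.35e-05) against ap > NelfAi, and these 3 calls held with any 1 library left out. The log2 fold change of Ama in ap > Yki against ap > GFP was -1.37 (0.31, adjusted p = 0.042), a call that held in 4 of the 10 fits that left out a library.

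Vg acts with Sd in the wing pouch as well as in the myoblasts of the indirect flight muscles. The values of vg were 21.7, 22.3 and 20.6 in ap > Yki+NelfAi, 39.9, 39.1 and 35.8 in ap > Yki, 39.2 and 64.2 in ap > NelfAi, and 74.0 and 75.4 in ap > GFP, without overlap except between the middle genotypes. The log2 fold change of vg was -1.77 (SE 0.21, limma adjusted p = 0.00053) in ap > Yki+NelfAi against ap > GFP and -0.96 (0.21, adjusted p = 0.040) in ap > Yki against ap > GFP, the second holding in 2 of the 10 fits without a library. Its partner sd was not called in any comparison, with 142 ± 30 in ap > Yki+NelfAi, 78.3 ± 12.4 in ap > Yki, 82.8 ± 60.3 in ap > NelfAi and 103 ± 4 in ap > GFP (SD, n = 3, 3, 2 and 2 libraries). The Twi partner da, with an adjusted p of 0.52 in ap > Yki+NelfAi against ap > GFP by limma, stood at 38.4 ± 5.7 and 44.9 ± 4.0 in these genotypes. The progenitor gene how, which encodes an RNA-binding protein, was at 28.9 ± 3.6 in ap > Yki+NelfAi and 42.9 ± 4.2 in ap > GFP and was not called (limma adjusted p = 0.61, SE 0.69), with 6.04 and 44.6 in the 2 libraries of ap > NelfAi.

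Adhesion proteins of myoblast fusion were among the genes that fell. Hbs and Sns are immunoglobulin-domain receptors of the cell that joins a founder, and Kirre is a receptor on the founder. The values of hbs were 1.57, 2.40 and 1.90 in ap > Yki+NelfAi, against 23.0 and 17.1 in ap > GFP, a log2 fold change of -3.06 (SE 0.61, limma adjusted p = 0.0068, and 0.064 without ap > GFP replicate 1). For sns, the fall was -2.67 (0.44, adjusted p = 0.0035) against ap > Yki, with values of 1.14, 0.69 and 2.49 in ap > Yki+NelfAi and 11.9, 9.36 and 11.8 in ap > Yki. Kirre rested on 2, 4 and 3 reads in ap > Yki+NelfAi, against 43 and 75 in ap > GFP, and its fitted log2 fold change of -2.52 (0.37, adjusted p = 0.0015) therefore depends on the pseudocount. E(spl)m6-BFM, a Notch target of the myoblasts, was at 0.05, 1.71 and 0.70 in ap > Yki+NelfAi, against 9.97 and 13.7 in ap > GFP, with a log2 fold change of -3.43 (0.53, adjusted p = 0.0019). Not all genes of the list fell in this comparison. For rst, mbc and blow the log2 fold changes were -0.94, 0.15 and 0.06, and none was called (limma adjusted p = 0.32, 0.89 and 0.89).

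The list of 14 gave 7 falls against ap > Yki, 4 against ap > NelfAi, 2 in ap > Yki against ap > GFP and 0 in ap > NelfAi against ap > GFP, without any rise. Beside these stand 10.2%, 9.11%, 1.64% and 0.0509% of all genes called lower. With 1 library left out, the 8 falls against ap > GFP ran between 4, without ap > GFP replicate 1, and 8, the 7 against ap > Yki between 4 and 7, and the 4 against ap > NelfAi between 2 and 8, where leaving out the library labelled ap > NelfAi replicate 2 also gave 2 rises. The 2 falls in ap > Yki ran between 0 and 3. In ap > NelfAi, where 0 fell, 3 of the 14 had an unadjusted p under 0.05 and edgeR and DESeq2 also called 0. The limma count of 0 did not hold without the library labelled ap > NelfAi replicate 2, which left 1 library of the genotype. Calls over all genes rose there as well. Leaving out both ap > NelfAi replicate 1 and ap > Yki replicate 3 was a choice made after seeing the data. It left 1 library of ap > NelfAi, so medians over the list are given. For the tumorous discs they were -1.60 against ap > GFP, -0.77 against ap > Yki and -1.66 against ap > NelfAi. Against ap > GFP they were -0.87 in ap > Yki and 0.11 in ap > NelfAi.

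**Figure D3:**
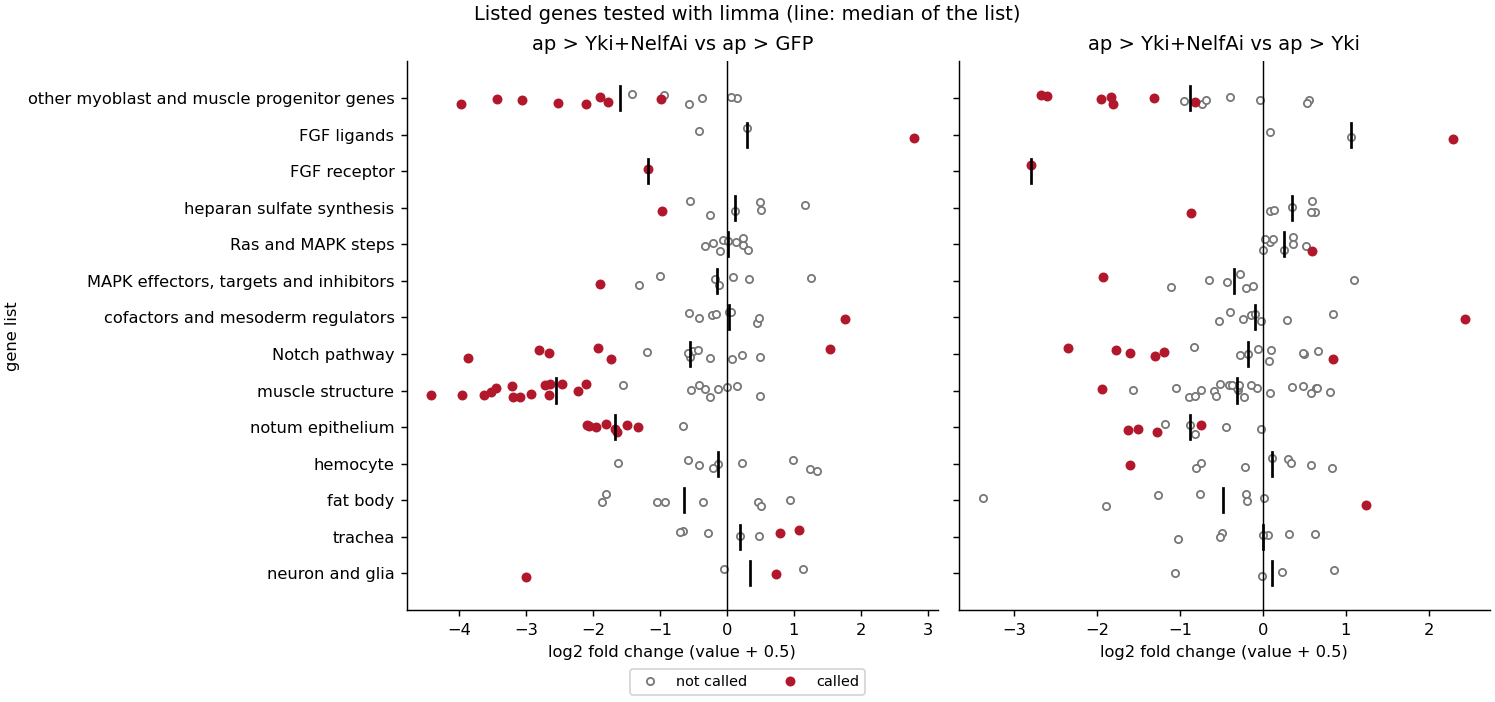
log2 fold change (on value + 0.5) of each listed gene that is not a member, by list, in ap > Yki+NelfAi against ap > GFP (left) and against ap > Yki (right). Filled points passed the limma call, open points did not, and the vertical line of a list is its median. In the left panel the 8 called genes of the myoblast list and the 8 called notum genes all lie left of 0.

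Htl and Stumps work with ligands and with a second FGF receptor, Btl of the trachea, whose ligand is Bnl. The Htl ligands ths and pyr were not called in any comparison. The values of ths were 23.6, 9.05 and 8.13 in ap > Yki+NelfAi, 7.33, 7.46 and 26.2 in ap > Yki, 1.34 and 13.2 in ap > NelfAi, and 18.9 and 13.98 in ap > GFP, with a log2 fold change of -0.42 (SE 0.84) in ap > Yki+NelfAi against ap > GFP. For pyr, the same comparison gave 0.30 (SE 0.53), with 9.87, 5.003 and 4.89 in ap > Yki+NelfAi and 6.27 and 3.94 in ap > GFP. Both ligands overlapped between these genotypes, in contrast with their receptor.

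The tracheal ligand moved the other way from the members. The values of bnl were 10.2, 26.7 and 12.7 in ap > Yki+NelfAi, 2.26, 2.42 and 3.53 in ap > Yki, 0.50 and 1.65 in ap > NelfAi, and 1.92 and 1.62 in ap > GFP. It rose in ap > Yki+NelfAi by a log2 fold change of 2.79 (SE 0.44, limma adjusted p = 0.0020) against ap > GFP, 2.29 (0.39, adjusted p = 0.0041) against ap > Yki and 3.41 (0.44, adjusted p = 0.00089) against ap > NelfAi, and was called in all 21 fits tried of each. The receptor btl was at 0.57, 0.62 and 0.50 in ap > Yki+NelfAi (9 to 12 reads), 5.61, 9.64 and 5.85 in ap > Yki, 1.51 and 2.27 in ap > NelfAi, and 1.98 and 1.83 in ap > GFP. It rose in ap > Yki against ap > GFP by 1.61 (0.28, adjusted p = 0.015) and fell in ap > Yki+NelfAi, with log2 fold changes of -1.18 (0.28, adjusted p = 0.015) against ap > GFP and -2.79 (0.25, adjusted p = 0.00023) against ap > Yki. The calls against ap > GFP were lost without ap > GFP replicate 1 or replicate 3, and the call against ap > Yki held with any library left out. The FGF receptors htl and btl were thus both lower in the tumorous discs, and btl, unlike htl, was higher without overlap in ap > Yki relative to ap > GFP.

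**Figure D4:**
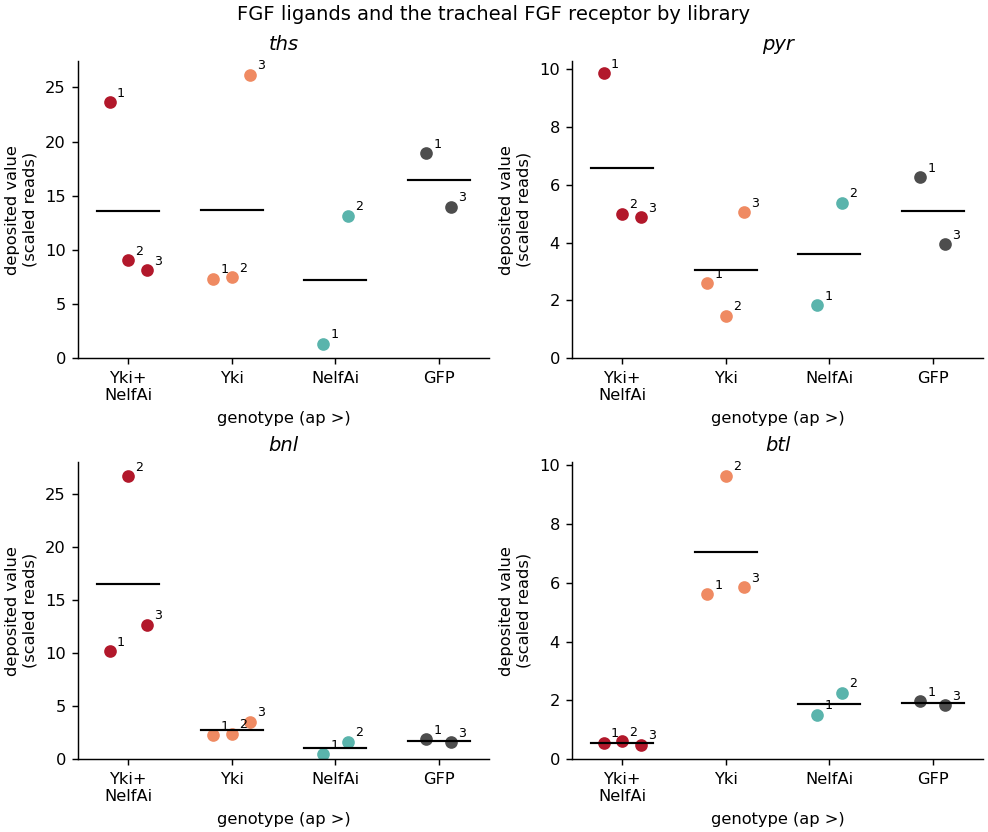
Deposited value (scaled reads, linear axis from 0) of the FGF ligands ths, pyr and bnl and the tracheal receptor btl in each library, genotypes from left to right ap > Yki+NelfAi, ap > Yki, ap > NelfAi and ap > GFP. Points are libraries with their replicate number and lines are genotype means. The tumorous libraries are highest for bnl, at 10.2 to 26.7, and lowest for btl, at 0.50 to 0.62.

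The steps between receptor and nucleus gave few calls. Of 7 genes of heparan sulfate synthesis, which FGF needs to bind its receptor, sgl, the UDP-glucose dehydrogenase, fell, with a log2 fold change of -0.97 (SE 0.25, limma adjusted p = 0.022) in ap > Yki+NelfAi against ap > GFP and of -0.87 (0.22, adjusted p = 0.026) against ap > Yki, calls that held in 7 and 5 of the 10 fits without a library. Of 9 Ras and MAPK genes 0 were called by limma between ap > Yki+NelfAi and ap > GFP, with 0 at an unadjusted p under 0.05 and a median of 0.02, and edgeR and DESeq2 also called 0, while rl, the MAP kinase itself, rose by 0.59 (0.17, adjusted p = 0.036) against ap > Yki in the complete set and in 3 of the 10 fits without a library. Of 8 effectors, targets and inhibitors, edl, which antagonises the repressor Yan, was at 2.70, 5.89 and 4.44 in ap > Yki+NelfAi, 17.6, 14.6 and 19.8 in ap > Yki, 10.1 and 11.51 in ap > NelfAi, and 17.6 and 16.1 in ap > GFP. It fell against each of them, with a log2 fold change of -1.89 (0.28, adjusted p = 0.0015) against ap > GFP, and held with any library left out. The inhibitor sty was called in 1 comparison, higher in ap > Yki+NelfAi than in ap > NelfAi by 2.42 (0.69, adjusted p = 0.039), and in 1 of the 10 fits without a library.

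Among cofactors and mesoderm regulators, 9 of 18 listed genes were tested and 1 was called, lbl, a homeobox gene of muscle precursors. It rose to 9.53, 7.68 and 3.49 in ap > Yki+NelfAi, against 1.53 and 1.51 in ap > GFP and 0.75, 1.04 and 0.56 in ap > Yki, with log2 fold changes of 1.77 (SE 0.38, limma adjusted p = 0.0096) and 2.44 (0.34, adjusted p = 0.0015). The first of these was lost without either ap > GFP library. It therefore stood opposite in sign to the 6 members.

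Notch holds adult myoblasts undifferentiated together with Twi, and its targets of the E(spl) complex respond in many disc cells. Of 15 Notch pathway genes tested, 5 fell and 1 rose in ap > Yki+NelfAi against ap > GFP, and the same counts, 5 and 1, were found against ap > Yki. Over all genes, 12.1% were called lower and 10% higher against ap > GFP, and 10.2% and 7.2% against ap > Yki. The falls were all genes of the E(spl) complex, while N, Dl and Su(H) were not called. Not every listed gene of that complex fell. E(spl)m8-HLH was not called, at 3.04, 11.4 and 9.78 in ap > Yki+NelfAi and 10.4 and 9.01 in ap > GFP. The values of E(spl)mbeta-HLH were 32.7, 55.7 and 35.4 in ap > Yki+NelfAi, 134, 110 and 124 in ap > Yki, 170 and 227 in ap > NelfAi, and 240 and 269 in ap > GFP. On the deposited scale this was the same order of genotypes as Him. E(spl)mbeta-HLH fell, with a log2 fold change of -2.65 (SE 0.25, limma adjusted p = 0.00014) against ap > GFP. E(spl)mdelta-HLH fell, with a log2 fold change of -3.87 (0.24, adjusted p = 2.54e-05) against ap > GFP and of -2.34 (0.22, adjusted p = 0.00025) against ap > Yki, and E(spl)m7-HLH fell with one of -2.81 (0.37, adjusted p = 0.00083) against ap > GFP. The gene that rose was fng, which codes for a glycosyltransferase that modifies Notch, to 323, 229 and 247 in ap > Yki+NelfAi, against 101 and 80.5 in ap > GFP. These calls held with any library left out for the 3 E(spl) genes.

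Genes of muscle structure that depend on Mef2 in fly muscle were tested next. Of 24 tested, 15 fell in ap > Yki+NelfAi and 7 in ap > Yki, each against ap > GFP, and 1, Mlc2, fell in ap > Yki+NelfAi against ap > Yki, where the median over the list was -0.31. Over all genes, 12.1% were called lower in ap > Yki+NelfAi and 1.64% in ap > Yki, each against ap > GFP. The tumorous discs had 10.2% called lower against ap > Yki and 9.11% against ap > NelfAi. Against ap > NelfAi, the comparison in which Mef2 itself was at 0.02, 15 fell as well, and 15 or 16 with any library left out, beside up to 2 rises. Act57B, a muscle actin, was at 5.03, 7.20 and 3.54 in ap > Yki+NelfAi, 20.5, 18.05 and 11.1 in ap > Yki, 265 and 69.8 in ap > NelfAi, and 174 and 80.0 in ap > GFP. Libraries of ap > GFP and of ap > NelfAi were far apart here, and the 15 falls became 4 without ap > GFP replicate 1 and 10 without replicate 3. The 7 falls of ap > Yki became 0 without either of these libraries. The summed value of 8 markers of mature muscle, as a percent of the ap > GFP mean, was 23.0% to 47.9% in ap > Yki+NelfAi, 30.1% to 58.7% in ap > Yki, 70.3% to 285% in ap > NelfAi, and 70.3% to 130% in ap > GFP. Mlc2 makes up 50.8% of this sum in ap > GFP, and without it the tumorous libraries, at 36.8% to 84.6%, overlapped those of ap > GFP, at 72.6% to 127%. Without both Mlc2 and sls, the 2 highest of these markers in ap > GFP, they did not overlap. The sum was then 13.2% to 25.8% in ap > Yki+NelfAi, 17.2% to 28.4% in ap > Yki and 69.9% to 130% in ap > GFP.

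The labelled tissue was checked against markers of the cells that a wing disc sample can hold, and none of the markers in the table was at 0 in every library. RNA of markers of the notum epithelium, under which the adepithelial cells lie, was lower in the same libraries. Of 9 notum markers tested, 8 fell in ap > Yki+NelfAi against ap > GFP, 4 against ap > Yki and 7 against ap > NelfAi. Beside these stand 12.1%, 10.2% and 9.11% of all genes called lower. Against ap > GFP there were 0 calls for ap > Yki, where 5 had an unadjusted p under 0.05, and 0 for ap > NelfAi, where 0 had. For both, edgeR and DESeq2 also called 0. For example, eyg fell, with a log2 fold change of -1.81 (SE 0.23, limma adjusted p = 0.00078) and ara one of -2.09 (0.28, adjusted p = 0.00091) against ap > GFP, calls that held with any library left out, and the count of 8 was 5 without ap > GFP replicate 1. Their summed value was 29.0% to 34.3% of the ap > GFP mean in ap > Yki+NelfAi, 49.7% to 84.3% in ap > Yki, 64.3% to 124% in ap > NelfAi, and 90.6% to 109% in ap > GFP. The summed value of the 6 members was 43.2% to 53.3% in ap > Yki+NelfAi, 62.2% to 142% in ap > Yki, 56.6% to 98.0% in ap > NelfAi, and 90.9% to 109% in ap > GFP. Divided by the notum sum, it gave 0.988 to 1.15 in ap > Yki+NelfAi, 0.795 to 1.15 in ap > Yki, 0.541 to 0.601 in ap > NelfAi, and 0.681 to 0.686 in ap > GFP. Mef2 carries much of this ratio. As a percent of the ap > GFP mean, twi stood at 27.1%, 20.5% and 31.3% and Him at 13.8%, 28.7% and 12.7% in the tumorous libraries, where the notum sum was 29.0%, 29.9% and 34.3%. In each of them twi and Him were thus under the notum sum, while zfh1 lay on both sides of it and htl, stumps and Mef2 above it. The amount of notum tissue was not measured, and whether it has a part in the members' differences was not tested.

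**Figure D5:**
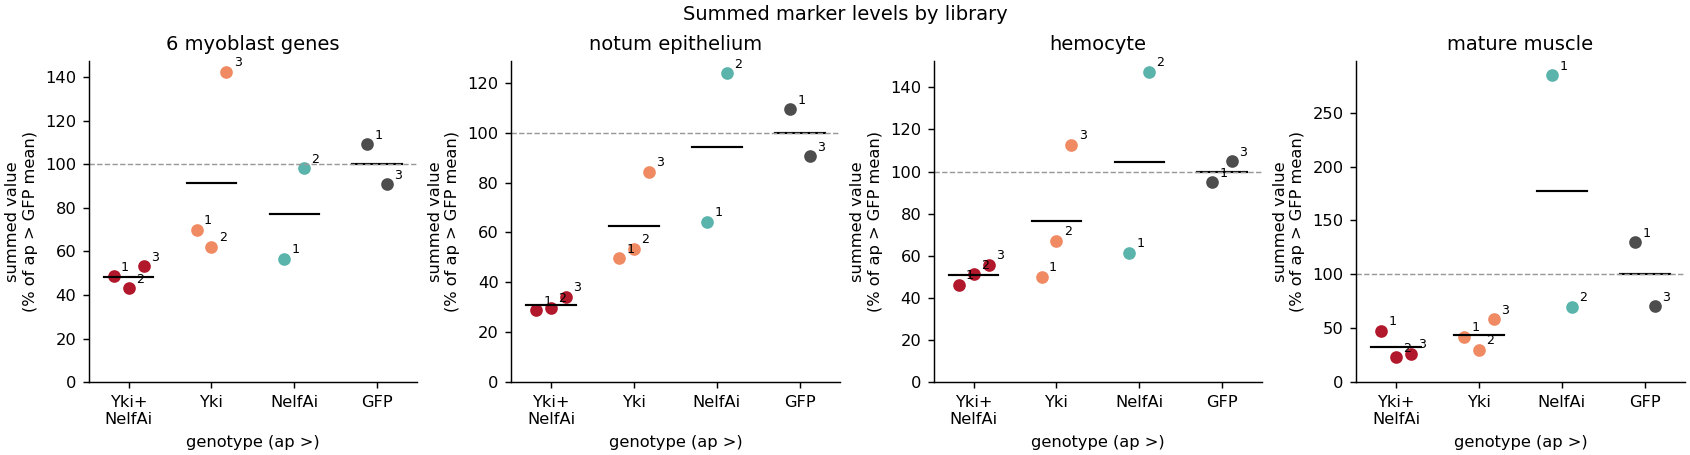
Summed deposited value of the 6 members, 9 notum markers, 9 hemocyte markers and 8 markers of mature muscle, as a percent of the ap > GFP mean (dashed line at 100), for each library and with genotypes from left to right ap > Yki+NelfAi, ap > Yki, ap > NelfAi and ap > GFP. Points are libraries with their replicate number and lines are genotype means. The tumorous libraries lie at 43.2% to 53.3% for the members and at 29.0% to 34.3% for the notum. Ppn makes up 81.9% of the hemocyte sum in ap > GFP.

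Hemocytes and glia also make Zfh1, and fat body and neurons also make Mef2. The 9 hemocyte markers summed to 46.3% to 55.8% of the ap > GFP mean in ap > Yki+NelfAi, 50.02% to 113% in ap > Yki and 61.6% to 147% in ap > NelfAi. Ppn, a matrix protein, makes up 81.9% of this sum in ap > GFP, and without it, a choice made after seeing the data, the other 8 summed to 122% to 148% in ap > Yki+NelfAi, 117% to 211% in ap > Yki and 105% to 184% in ap > NelfAi. Of the 9, 3 were higher and 2 lower without overlap in the tumorous libraries relative to ap > GFP, and 1, Pxn, was called, when the tumorous discs were set against ap > Yki, with a log2 fold change of -1.60 (SE 0.36, limma adjusted p = 0.014). Hml, which marks hemocytes, was at 30.4 in ap > Yki replicate 3 and at 3.51 to 10.6 in the other libraries, so this marker stood high in the library where zfh1, stumps and Mef2 did. It was picked after its values were seen, and its part in those levels was not tested. In ap > Yki replicate 3, Nplp2 was below the other ap > Yki libraries, at 6.59 against 13.6 and 11.7. NimC1 and crq lay between those libraries there, and the remaining hemocyte markers were above them. This library also had the trend towards long transcripts, with a rho of 0.47. The 8 fat body markers summed to 118% to 135% in ap > Yki+NelfAi, 151% to 240% in ap > Yki and 148% to 237% in ap > NelfAi. CG3523, a fatty acid synthase, holds 71.3% of the ap > GFP sum. Without it the sums were 44.7% to 123% in ap > Yki+NelfAi, 44.8% to 430% in ap > Yki and 121% to 708% in ap > NelfAi. Of these markers 0 were called for the tumorous discs relative to ap > GFP, where 2 had an unadjusted p under 0.05, edgeR called 0 and DESeq2 1 in each direction. The 7 tracheal markers stood at 135% to 147% in ap > Yki+NelfAi, and without verm and serp at 78.0% to 85.1%, with rises of serp by 1.07 (0.22, adjusted p = 0.0073) and verm by 0.80 (0.23, adjusted p = 0.037) against ap > GFP, although both code for chitin deacetylases that epidermal cells make as well, and the calls held in 9 and 5 of the 10 fits without a library. The neuronal and glial markers in the table summed to 134% to 178% in ap > Yki+NelfAi, 145% in ap > Yki and 83.2% to 109% in ap > NelfAi, and without nrv2, which holds 72.6% of the ap > GFP sum, to 86.9% to 173% in the tumorous libraries. Of the 4 that were tested, nrv2 rose by 0.73 (0.16, adjusted p = 0.011) and Gs2 fell, with a log2 fold change of -3.00 (0.43, adjusted p = 0.0012) against ap > GFP. The notum sum stayed under both controls, at 29.5% to 31.9%, when its 2 highest markers were left out as well, while the direction of the hemocyte, fat body and tracheal sums rested on 1 or 2 genes. The part of these cell types in the members' values was not tested.

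The genes whose levels ran closest to the members were ranked by Pearson's r of log2(value + 0.5) over the 10 libraries, among 6060 genes with a mean value of at least 5. Closest to the mean of the 6 were ush at 0.965 and LanB2 at 0.964, followed by klu at 0.959, Sir2 and CG34380 at 0.957, bbg at 0.955, lea at 0.954 and Samuel at 0.948. LanB2, a laminin chain of the basement membrane, averaged 26.3 in ap > Yki+NelfAi, 51.9 in ap > Yki, 59.2 in ap > NelfAi and 70.9 in ap > GFP. Among single members, twi ran closest with Irk1 and CG31301, both at 0.969, and Him with E(spl)mbeta-HLH at 0.975 and pnr at 0.961. The nearest gene of zfh1 was ct, at 0.983, whose product Cut is high in myoblasts of the direct flight muscles, and htl and stumps shared vkg, a collagen IV chain, at 0.938 and 0.882. For Mef2 they were CG3700 at 0.980 and Cad74A at 0.966. These correlations span libraries that share genotype, depth and length trend, and they are given as a description.

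Him, zfh1, htl and stumps have coordinates on dm6 that the annotation used here places as follows. Him lies on chromosome X at 18209427 to 18210741 on the plus strand, and zfh1 on chromosome 3R at 30765926 to 30789202 on the plus strand. The FGF receptor htl spans 18045216 to 18052984 on the minus strand of 3R and stumps 14577217 to 14608079 on its plus strand. The values count reads over whole genes, so they do not separate isoforms.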

How the data were processed

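RNA-seq of 10 wing disc libraries was analysed. Per the labels' processing notes the authors used bcl2fastq, HISAT, StringTie and edgeR with build dm6, and the methods name the HISAT package protocol, with DEseq and edgeR for the comparisons. The deposited table holds a signal per gene and library, read counts divided by a library factor, and 5 further tables with the authors' own comparisons (log2 fold changes, mean levels, p-values and false discovery rates) were not used. Whole reads were recovered for 100% of values within 0.001 read. Entries of no gene (28.4% to 36.5% of reads) were left out.

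limma 3.58.1 (R 4.3.3), with a variance trend, was fitted on log2(value + 0.5) in 1 model of 10 libraries with genotype as factor, over 7858 genes, with Benjamini-Hochberg adjustment over all of them. A gene was called at an adjusted p under 0.05 and at least 1.5-fold. Fold changes on this scale understate the change of low genes. Replicates of 1 genotype had Spearman's rho of 0.950 to 0.990, with 0.859 in ap > NelfAi, and none agreed within sampling noise. Alternatives were edgeR 4.0.16 and DESeq2 1.42.0 on the recovered reads, RLE and scaling to the total of reads on genes, pseudocounts of 0.1 and 1, no filter, 2 genotypes only, a replicate block, removal of the length trend and each library left out. The fit was tested on simulated data. Names of 7876 of 7987 genes matched the Ensembl annotation of dm6, which gave transcript lengths and coordinates.

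The members and gene lists were chosen with earlier results of these data known. Named beside the members are, for each list, up to 4 called genes with the largest fold change per comparison, the FGF ligands, btl, da, vg, sd and how, and, by likeness, 8 genes for the mean and 2 for each member. Some further listed genes are named where they bear on a sum, a list or a library.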

Additional observations from a re-analysis of the deposited data

Results flagged for a closer look

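For 2 of the listed genes named by the rule above, the tumorous discs departed from the sum of both single effects by limma's interaction test. The test was adjusted over all 7858 genes, of which 99 (1.26%) passed. The named genes were picked largely by their fold changes in the same data, so nothing is read from their count. The level of yki was not held equal in this test. The estimate was -2.76 (SE 0.40, adjusted p = 0.024) for btl on the log2 scale, with btl lower in ap > Yki+NelfAi but higher in ap > Yki, each relative to ap > GFP. It was -2.70 (SE 0.44, adjusted p = 0.030) for Ama, whose tumorous values of 6.83 to 16.1 lay under those of all other genotypes. The bnl estimate was 2.92 (SE 0.62) and did not pass (adjusted p = 0.064). With 2 or 3 libraries a genotype, no Dixon test of a single library was run.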

How the results depend on the processing

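No call changed sign under an alternative, while differences of zfh1, Mef2 and stumps that were within their errors did, as given with those genes. The median log2 fold change of the 6 members was -1.30 in ap > Yki+NelfAi against ap > GFP and -1.57 with values scaled to the total of reads on genes, which moved the median of all genes to -0.22 in this comparison, -0.21 in ap > Yki against ap > GFP and -0.17 in ap > Yki+NelfAi against ap > NelfAi. Against ap > NelfAi it was -0.72, and -1.11 by edgeR, -1.12 by DESeq2 and -1.18 without ap > NelfAi replicate 1 and ap > Yki replicate 3, a setting chosen after seeing the data. Of the listed genes, 13 were called in ap > Yki against ap > GFP, and 23 by DESeq2, 25 with only the 2 genotypes in the fit, 25 with the length trend removed, 43 without those 2 libraries, and 5 with the replicate number as a block. Against ap > Yki, 26 were called in ap > Yki+NelfAi, and 40 with the length trend removed and 56 without those 2 libraries. Against ap > NelfAi it was 42, and 23 with only the 2 genotypes. With 1 library left out, the calls ran between 24 and 58 against ap > GFP (46 with all libraries, 61 without those 2), 17 and 38 against ap > Yki, 34 and 70 against ap > NelfAi. For ap > Yki against ap > GFP they ran between 0 and 28, and for ap > NelfAi against ap > GFP between 0 and 39, the last without the library labelled ap > NelfAi replicate 2. The medians of the members ran between -1.52 and -1.08, -1.09 and -0.47, -1.18 and -0.57, -0.70 and -0.22, and -0.53 and -0.21 in the same order. A sample left alone in its genotype is assumed to vary like the others. That scaling gave 452 rises and 1365 falls over all genes for the tumorous discs against ap > GFP, and the deposited scale 789 and 947, which became 1303 and 1347 with only these genotypes and 439 and 652 with the replicate block. For ap > Yki the deposited scale gave 189 rises and 129 falls, and DESeq2 366 and 246, the length trend removed 430 and 293, and the block 61 and 56. Same-numbered deviations of ap > Yki+NelfAi and ap > Yki correlated at -0.27, 0.14 and -0.23, and those of ap > Yki and ap > NelfAi at 0.59 and -0.43. Deviations from a mean of 2 or 3 libraries mirror each other and carry the length trend. These values therefore cannot decide whether replicate numbers pair the libraries. Of 1743 values of named listed genes under alternatives, 1554 kept their call. Of 630 values of single members, 627 stayed within the spread of replicates. Leaving out a library cannot move a value beyond that spread, so this count does not measure how stable the members are. Depth limits Him, kirre, btl and E(spl)m6-BFM most.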
